A study of Drosophila melanogaster with 23 samples.

Results

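The tetraspanin genes of *Drosophila melanogaster* were followed in the brain over 4 ages in each sex. They were taken as every gene in the counts whose symbol begins with Tsp and a digit, together with TM4SF and lbm, which gave 36 of 17521 genes. The samples were whole brains dissected from wild-type Canton-S flies that were housed by sex and received no treatment, and each library was made from a pool of 18 brains. Females were sampled at 5, 20, 30 and 40 days after eclosion with 3 libraries per age (A, B and C), and males at the same ages with 3 libraries per age except at 30 days, where there were 2 (B and C). A library is written as sex, age and letter, so F30A stands for library A of the 30-day-old females.

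Tetraspanins are small membrane proteins that cross the membrane 4 times and expose a small and a large loop outside the cell. They gather partner proteins such as integrins, proteases and receptors into membrane domains, and many of them travel through endosomes and lysosomes or leave the cell on exosomes. In flies, Tsp3A, Tsp26A and Tsp86D regulate the protease Kuzbanian and with it Notch signalling, Tsp42Ej (also called sunglasses) sits on lysosomes of photoreceptors and promotes the degradation of rhodopsin, lbm (late bloomer) helps motor axons form synapses on muscle, and Tsp2A is part of the smooth septate junctions of the gut.

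Library totals lay between 6770442 counts (F40B) and 28687450 counts (F5C), with a median of 15628443, and the 6 libraries of 5-day-old flies had between 21133499 and 28687450. Levels are counts per 1000000 (CPM) scaled by TMM factors, and 3 counts, the limit taken for a gene with no count, were worth between 0.105 and 0.405 CPM. A gene is said to have risen or fallen with age when edgeR's quasi-likelihood F test, at a 5% false discovery rate, called it both across the 4 ages and between the 2 ages compared, each sex being fitted alone. Fold changes are given on the log2 scale with their standard errors (SE). The midgut gene mex1 lay at 16.4 CPM in F5B, 161 CPM in F30A, 16.7 CPM in F30B, 75.5 CPM in F40A and 52.6 CPM in M40C, against 7.93 CPM or less in the other 18 libraries. These 5 are called the mex1 libraries, and results were also computed without them. The neuronal gene elav lay between 236 and 593 CPM and the glial gene repo between 111 and 320 CPM in the 23 libraries, and the photoreceptor opsin gene ninaE between 307 and 16350 CPM.

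Expression of the family in the young brain covered a wide range. Set against exon length, the highest mean levels in 5-day-old females were those of Tsp42Ej (211 ± 35.7 CPM per kb), TM4SF (193 ± 18.1 CPM per kb) and Tsp42Ee (183 ± 3.50 CPM per kb; SD, n = 3). The same 3 genes led in 5-day-old males, with 204 ± 18.97, 193 ± 30.1 and 174 ± 34.7 CPM per kb (SD, n = 3). Neighbours among these 3 did not differ beyond their spread in either sex. Tsp5D followed at 116 ± 55.3 CPM per kb in females and 137 ± 45.0 CPM per kb in males, then Tsp97E at 92.4 ± 12.5 and 92.9 ± 12.4 CPM per kb and Tsp66E at 66.1 ± 9.46 and 70.1 ± 11.6 CPM per kb (SD, n = 3 each). At the other end, Tsp42Eb and Tsp66A had no count in any of the 23 libraries, Tsp42A had 2 counts in all, Tsp68C 6 and Tsp33B 7, and Tsp42Eo had 58 counts spread over 12 libraries. These 6 genes did not pass the filter on low counts, and the other 30 were tested in females, in males and between the sexes. All exons of Tsp66A coincide with exons of CG42660 and CG42661 on the same strand, and all exons of Tsp42Eo lie opposite Tsp42Ep, so the low counts of these genes are uncertain.

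**Figure D1:**
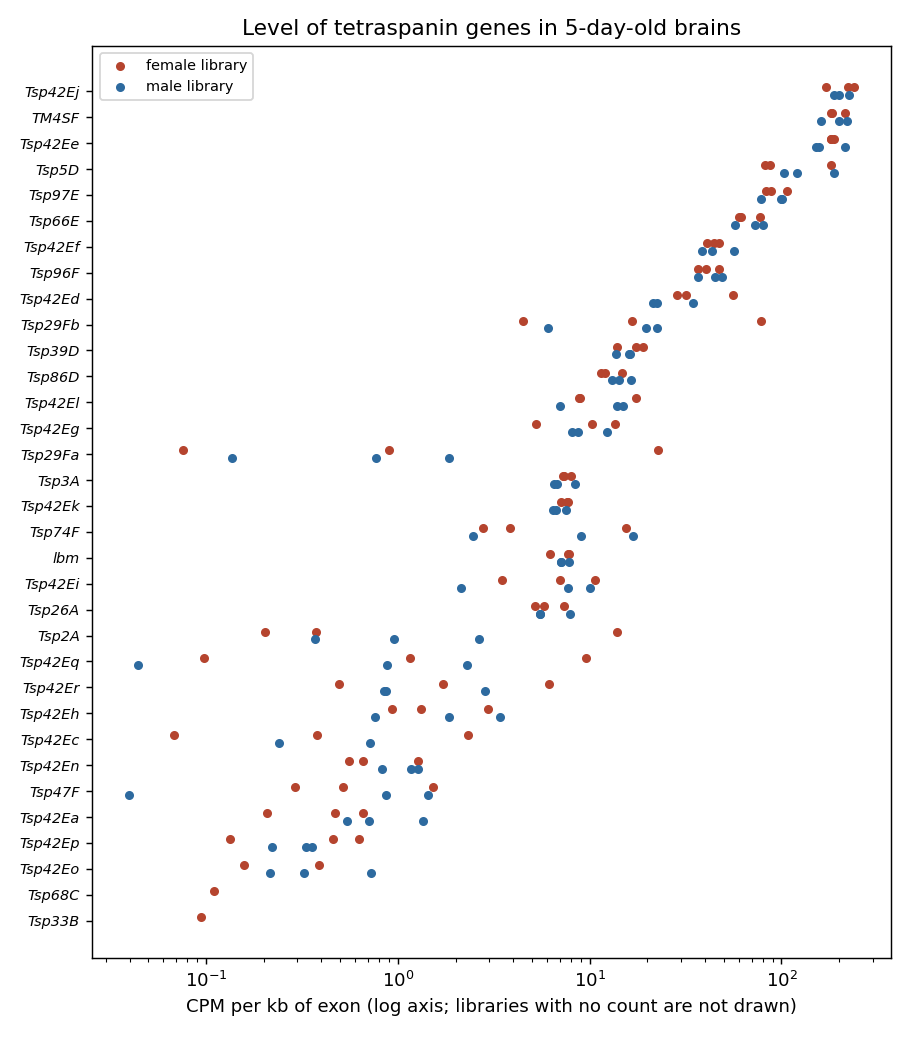
Level of each tetraspanin gene in brains of 5-day-old flies, in CPM per kb of exon on a log axis, with 1 point per library (3 female, 3 male) and genes ordered by their mean. Tsp42Ej, TM4SF and Tsp42Ee stood at the top in both sexes, and the libraries of Tsp29Fa, Tsp2A and Tsp42Eq lay far apart within a sex.

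Of the 30 genes tested, 7 changed with age in females and 3 of these also in males, by the F test over the 4 ages. Over all genes this test called 14.5% in females and 0.287% in males. In females, 2 tetraspanin genes differed from 5 days at 20 days (2.97% of all genes were called there), 6 differed at 30 days (6.67% of all genes) and 5 at 40 days (7.34%). In males, 1 differed at 20 days (0.037% of all genes), none at 30 days (0.0463%) and 3 at 40 days (0.287%). At an unadjusted p under 0.05 the 30-day comparison in males held 6 of the 30 genes by edgeR, and DESeq2 called 2. TM4SF, Tsp42Ej, Tsp5D, Tsp66E and Tsp97E fell with age in at least 1 sex, and Tsp42Ed and Tsp39D rose. The median log2 fold change over the 30 genes at 20, 30 and 40 days was -0.08, 0.20 and 0.35 in females, where that of all genes was -0.04, -0.00 and -0.03. In males it was 0.06, -0.18 and 0.17, where that of all genes was 0.01, -0.02 and -0.01. At 30 days against 20 days no tetraspanin gene passed in either sex by edgeR or DESeq2, with 5 genes in females and 1 in males at an unadjusted p under 0.05 in edgeR.

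**Figure D2:**
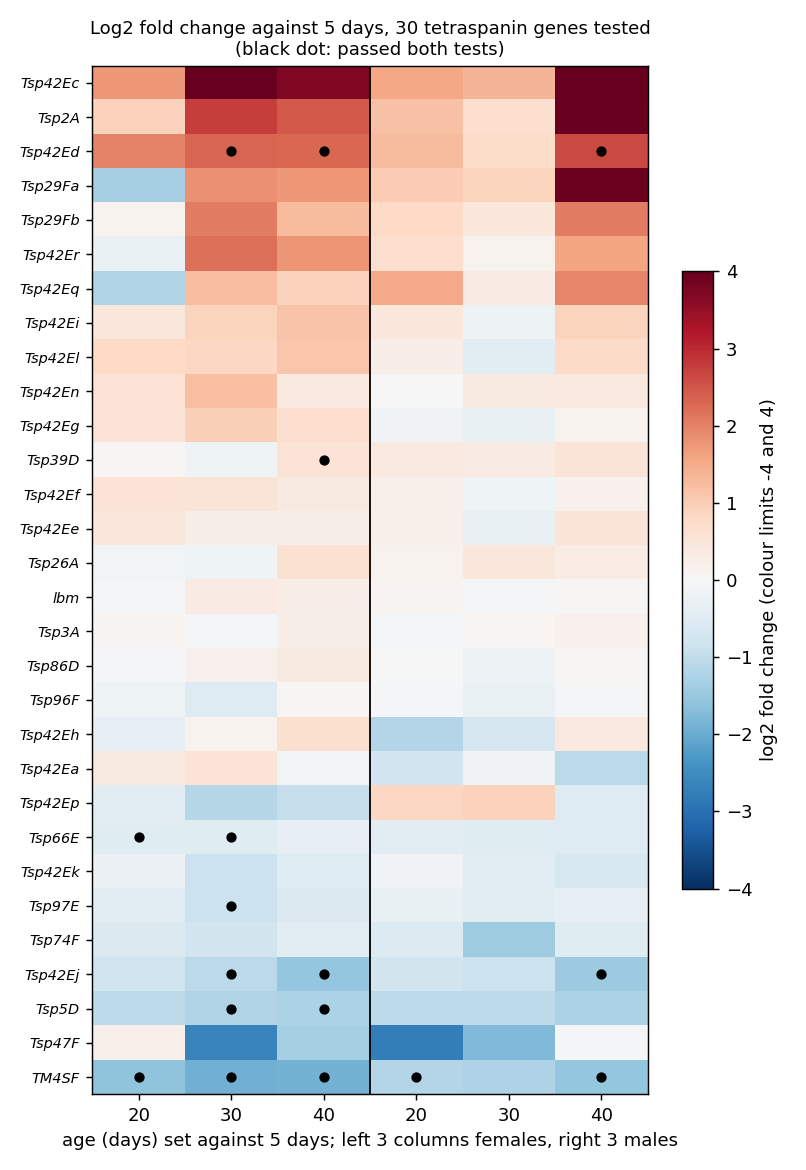
Log2 fold change of the 30 tested tetraspanin genes at 20, 30 and 40 days, each against 5 days, in females (left 3 columns) and males (right 3 columns), with red for higher and blue for lower at the older age and a black dot where both tests were passed. TM4SF carried 5 dots, and the strong reds without a dot at 30 and 40 days belong to genes such as Tsp42Ec, Tsp2A and Tsp29Fa, whose replicate libraries lay far apart.

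TM4SF (FBgn0020372; chromosome 2R, 23878197 to 23880860, plus strand, BDGP6, which is dm6) fell in both sexes and had the smallest adjusted p of the falling members. Female libraries had 449, 439 and 520 CPM at 5 days, 152, 148 and 165 CPM at 20 days, 123, 103 and 155 CPM at 30 days, and 113, 130 and 129 CPM at 40 days. Male libraries had 484, 533 and 389 CPM at 5 days, 184, 212 and 220 CPM at 20 days, 191 and 210 CPM at 30 days, and 142, 169 and 162 CPM at 40 days. Every library of the older ages lay below every 5-day library of the same sex, and the 20-day libraries already lay close to those of 30 and 40 days. In females the log2 fold change was -1.61 (SE 0.16) at 20 days, -1.93 (SE 0.16) at 30 days and -1.91 (SE 0.16) at 40 days, with adjusted p of 0.00386, 0.00146 and 0.00041 in edgeR's quasi-likelihood test. In males it was -1.18 (SE 0.15; adjusted p = 0.0460 by edgeR) at 20 days and -1.56 (SE 0.16; adjusted p = 0.00203) at 40 days. It was the single gene of 10799 (0.00926%) called lower at 20 days in males. At 30 days in males, with 2 libraries, the value was -1.25 (SE 0.18) and did not pass in the main fit (adjusted p = 0.0618 by edgeR). It passed in edgeR with both sexes in 1 fit (-1.23, adjusted p = 0.00226) and with DESeq2 (-1.23, adjusted p = 4.4e-08).

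The 3 female calls of TM4SF held with any 1 library left out. Without the mex1 libraries the values were -1.66 at 20 days and -1.90 at 40 days in females and -1.57 at 40 days in males, all 3 still past both tests in edgeR, and -1.63 at 30 days in females, where 1 library remained and the call was lost (adjusted p = 0.135). The call at 40 days in males was lost only without M5A (-1.53, F test adjusted p = 0.0574 by edgeR), and that at 20 days in males was kept only without M5C and otherwise lost, at values between -1.25 and -1.08. Neuronal markers moved with TM4SF at 30 days in females, where 3 of 8 were called lower, nrv3 among them, and the summed level of the 8 lay between 3966 and 5071 CPM, against 6870 to 11080 CPM at 5 days. At 40 days in females none of the 8 was called lower, cac was called higher, and their sum lay between 7181 and 8760 CPM, while TM4SF was at its lowest mean. The part of these markers in the 30-day value was not tested. Of 12 glial markers, edgeR called 2 lower at 30 days and 1 at 40 days in females, and none at 40 days in males. Their sum lay between 4143 and 4976 CPM in 40-day-old females, against 5247 to 9269 CPM at 5 days. In males it lay between 3749 and 5951 CPM at 40 days, against 6023 to 9952 CPM at 5 days. Their median log2 fold change at 40 days was -0.24 in females and -0.37 in males. The part of the glial markers in the 40-day values of TM4SF and Tsp42Ej was not tested. In RNA from whole brains, fewer cells of a type and less RNA per cell cannot be told apart.

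**Figure D3:**
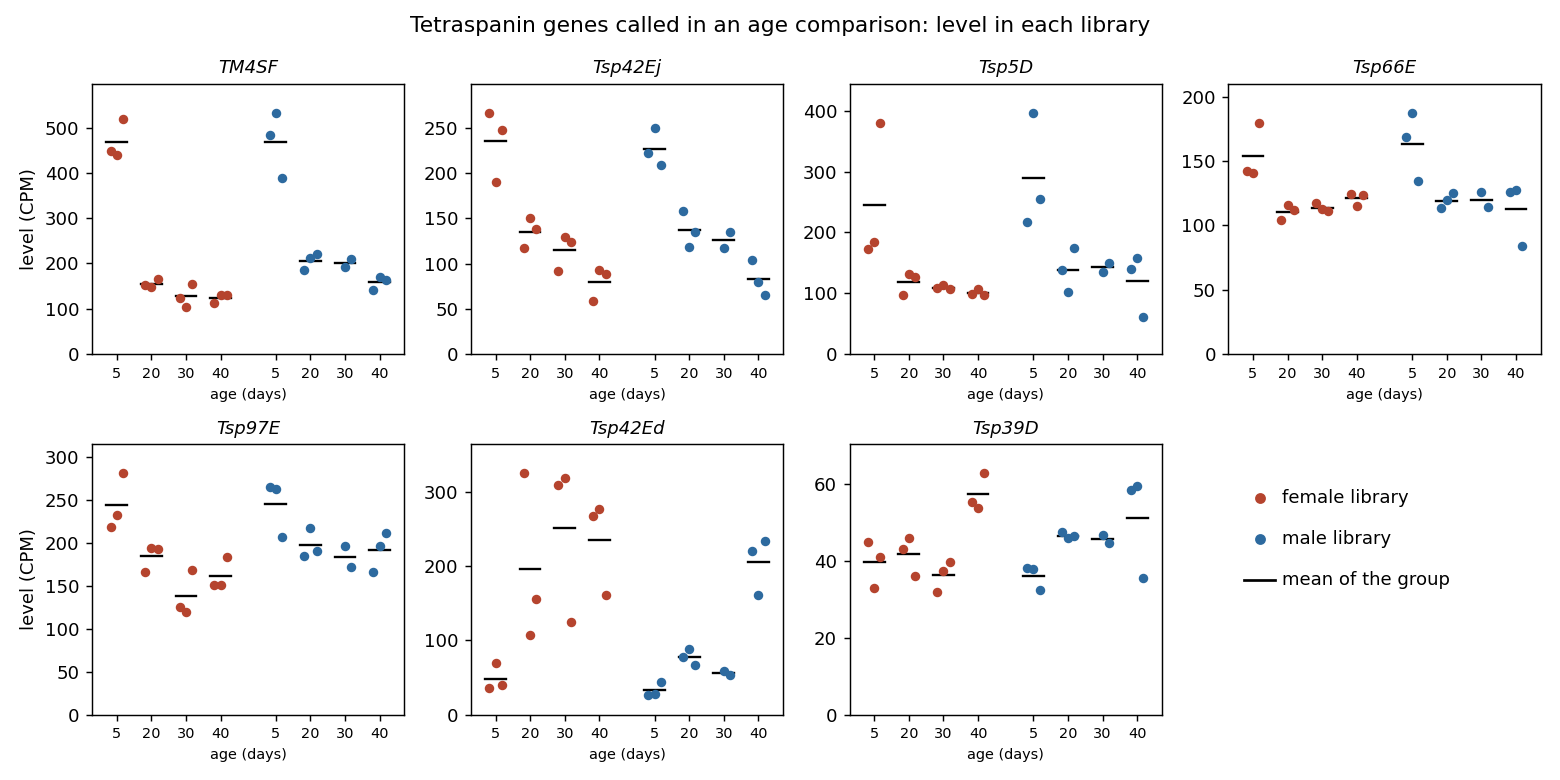
Level in CPM of the 7 tetraspanin genes called in an age comparison, with 1 point per library, females (red) left of males (blue), ages from 5 to 40 days, and a bar at the mean of each group. TM4SF and Tsp42Ej were lower at every later age in both sexes, Tsp42Ed was higher, and a single 5-day library (F5C) lay far above the other female libraries for Tsp5D.

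Tsp42Ej, the lysosomal tetraspanin of photoreceptors (FBgn0033132; chromosome 2R, 7040136 to 7042762, plus strand), fell in both sexes. Levels in females were 267, 191 and 248 CPM at 5 days, 117, 151 and 138 CPM at 20 days, 91.4, 129 and 124 CPM at 30 days, and 58.2, 93.2 and 88.9 CPM at 40 days. Levels in males were 222, 250 and 209 CPM at 5 days, 158, 118 and 135 CPM at 20 days, 117 and 136 CPM at 30 days, and 104, 79.1 and 64.7 CPM at 40 days. The 5-day libraries were the highest of each sex without overlap, and the means were lower at each later age in both sexes, down to 80.1 ± 19.1 CPM in 40-day-old females and 82.7 ± 19.9 CPM in 40-day-old males (SD, n = 3 each). The log2 fold change at 40 days was -1.55 (SE 0.22; adjusted p = 0.00247) in females and -1.45 (SE 0.18; adjusted p = 0.00708) in males by edgeR, and at 30 days in females it was -1.08 (SE 0.22; adjusted p = 0.0186). At 20 days the values of -0.81 in females and -0.72 in males, and that of -0.87 at 30 days in males, did not pass in these edgeR fits. DESeq2 called all 3, at -0.79, -0.74 and -0.86 (adjusted p of 0.0129, 0.0197 and 0.0227). With both sexes in 1 fit, edgeR called the female value at 20 days (-0.80, adjusted p = 0.0398).

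The call of Tsp42Ej at 40 days in females held with any 1 library left out. That at 30 days in females was lost without F30A or without F30B, with values between -1.15 and -0.92. That at 40 days in males was kept only without M20B or without M40A, and otherwise failed the F test over ages, with values between -1.47 and -1.30. Without the mex1 libraries Tsp42Ej was at -1.50 in females and -1.30 in males at 40 days and no longer passed the F test (adjusted p = 0.106 and 0.114 by edgeR). Retinal transcripts were present in every library, in amounts that differed within each age. The summed level of 19 retina markers lay between 10420 and 14820 CPM in 40-day-old females, against 3909 to 29470 CPM at 5 days, and between 7410 and 19270 CPM in 40-day-old males, against 6493 to 14530 CPM at 5 days. None of the 19 was called by edgeR in any comparison with 5 days. At 40 days none had an unadjusted p under 0.05 in either sex and DESeq2 called none, and their median log2 fold change at 40 days was 0.01 in females and 0.31 in males.

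Tsp5D (FBgn0029837; chromosome X, 6069131 to 6074857, minus strand) fell in females. Its levels were 172, 184 and 380 CPM at 5 days, 96.6, 131 and 127 CPM at 20 days, 108, 113 and 107 CPM at 30 days, and 98.0, 108 and 97.4 CPM at 40 days. The older libraries lay close together and below all 3 young ones, of which F5C stood far above the others. The log2 fold change was -1.21 (SE 0.26; adjusted p = 0.0225) at 30 days and -1.26 (SE 0.26; adjusted p = 0.0142) at 40 days by edgeR, and without F5C it was -0.74 at 30 days and -0.82 at 40 days, both still past the tests. The 30-day call was lost without F30A (-1.19), F30B (-1.22) or F40B (-1.20), the 40-day call without F40B (-1.30) or F40C (-1.23), and both without the mex1 libraries, at -1.35 and -1.42. In males Tsp5D had 217, 397 and 254 CPM at 5 days, 138, 102 and 174 CPM at 20 days, 135 and 150 CPM at 30 days, and 139, 157 and 60.9 CPM at 40 days. The male ages did not overlap with 5 days either. The log2 values between -1.28 and -1.05 did not pass in edgeR, with an adjusted p of 0.0874 at 40 days. DESeq2 called Tsp5D in males over the 4 ages (adjusted p = 0.0167) and at -1.27 for 40 days against 5 days (adjusted p = 0.00833). In females DESeq2 also called it at 20 days (-1.04, adjusted p = 0.00445).

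Tsp66E and Tsp97E showed smaller falls in females. Tsp66E (FBgn0035936; chromosome 3L, 8912499 to 8932065, plus strand) had 143, 140 and 180 CPM at 5 days, 104, 115 and 112 CPM at 20 days, 118, 113 and 111 CPM at 30 days, and 125, 115 and 124 CPM at 40 days. The 5-day libraries lay above all the others, and the log2 fold change was -0.49 (SE 0.11; adjusted p = 0.0416) at 20 days and -0.49 (SE 0.11; adjusted p = 0.0259) at 30 days by edgeR, and -0.34 at 40 days, which did not pass. The 20-day call was lost with any 1 of the 12 female libraries left out (values between -0.54 and -0.36), and the 30-day call was kept only without F5A, F5B or F20B and lost with each of the other 9 (between -0.49 and -0.35).

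Tsp97E (FBgn0039465; chromosome 3R, 26961064 to 26964817, minus strand) had 218, 232 and 281 CPM at 5 days, 166, 193 and 192 CPM at 20 days, 125, 120 and 168 CPM at 30 days, and 150, 151 and 183 CPM at 40 days in females. No older library reached the lowest young one. In the main edgeR fit it passed at 30 days alone, where the log2 fold change was -0.87 (SE 0.17; adjusted p = 0.0161). The values were -0.41 at 20 days and -0.58 at 40 days. The 30-day call was lost without F30A, F30B, F40A, F40B or F40C (values between -0.87 and -0.76). DESeq2 also called the fall at 40 days (-0.54, adjusted p = 0.0217). So did edgeR with a filter of 1 CPM (-0.57, adjusted p = 0.0443), both sexes in 1 fit (-0.59, adjusted p = 0.0197) and the replicate letter as a block (-0.58, adjusted p = 0.0183). Without the mex1 libraries neither Tsp66E nor Tsp97E was called, at -0.53 and -0.56 for 30 days. Of the 8 neuronal markers, edgeR called 3 lower at 30 days in females, where their median log2 fold change was -0.85, and their sum lay between 3966 and 5071 CPM at 30 days, against 6870 to 11080 CPM at 5 days. At 20 days in females edgeR called none of the 8 and their sum lay between 5128 and 7069 CPM. At 40 days none was called lower and 1 higher, and the sum lay between 7181 and 8760 CPM. Their part in the values of Tsp66E and Tsp97E, and in the 30-day values of Tsp42Ej and Tsp5D, was not tested. In males at 40 days Tsp66E was at -0.53 (SE 0.17) and Tsp97E at -0.34 (SE 0.15), and neither passed.

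Tsp42Ed (FBgn0029507; chromosome 2R, 7009498 to 7011739, minus strand) rose in both sexes and had the largest called fold change among the members. Female libraries had 35.5, 70.2 and 39.5 CPM at 5 days, 325, 108 and 155 CPM at 20 days, 310, 319 and 125 CPM at 30 days, and 267, 276 and 161 CPM at 40 days. Male libraries had 26.7, 27.9 and 43.3 CPM at 5 days, 77.8, 88.0 and 67.2 CPM at 20 days, 58.6 and 53.5 CPM at 30 days, and 221, 161 and 234 CPM at 40 days. Each older library exceeded every 5-day library of its sex. The female libraries of each later age were spread widely, while the male libraries of an age lay closer together and reached the female range at 40 days. The log2 fold change was 2.31 (SE 0.49; adjusted p = 0.0242) at 30 days and 2.29 (SE 0.49; adjusted p = 0.0193) at 40 days in females, and 2.65 (SE 0.24; adjusted p = 0.00117) at 40 days in males, by edgeR. At 20 days it was 1.99 in females (adjusted p = 0.0585) and 1.25 in males (adjusted p = 0.175), and at 30 days 0.75 in males (adjusted p = 0.611). None of these passed in the main edgeR fits. In edgeR the female value at 20 days passed with both sexes in 1 fit (2.02, adjusted p = 0.0162). It also passed with the length trend removed (1.93, adjusted p = 0.0496) and with libraries blocked by letter (1.97, adjusted p = 0.0486). Other scaling factors and filters did not call it. DESeq2 called 20 days in females (2.02, adjusted p = 0.00028) and males (1.24, adjusted p = 0.000233), and 40 against 30 days in males (1.90, adjusted p = 6.7e-09).

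The male call of Tsp42Ed held with any 1 library left out, and without the mex1 libraries (2.56, adjusted p = 0.00388 by edgeR). Both female calls were kept only without F20A, F20B or F30C and otherwise failed the F test over ages, with values between 2.13 and 2.72 at 30 days and between 2.10 and 2.66 at 40 days. Without the mex1 libraries the female values were 1.75 at 30 days and 2.55 at 40 days and did not pass (adjusted p = 0.107 at 40 days by edgeR). The level of Tsp42Ed had a median of 267 CPM in the 5 mex1 libraries, 4 of which are from 30 or 40 days, against 82.9 CPM in the other 18, which is 3.22 times as much. Within an age the mex1 libraries were the highest or close to the highest, as with F5B among the young females, F30A and F30B at 30 days and M40C among the oldest males, and F20A, the highest of its age, had 7.93 CPM of mex1. High levels were also seen beside little mex1, at 276 CPM in F40B with 0.405 CPM of mex1 and at 221 CPM in M40A with 0.673 CPM. The part of midgut RNA in the female values was not tested beyond the fit without the mex1 libraries.

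Tsp39D (FBgn0032943; chromosome 2L, 21344607 to 21358271, plus strand) rose late in females. It had 45.0, 32.9 and 41.2 CPM at 5 days, 43.3, 46.1 and 36.0 CPM at 20 days, 31.9, 37.3 and 39.7 CPM at 30 days, and 55.3, 53.9 and 62.8 CPM at 40 days. The first 3 ages overlapped, and the 40-day libraries lay above all of them. The log2 fold change at 40 days was 0.72 (SE 0.15; adjusted p = 0.0264) against 30 days, where 6.61% of all genes were called, and 0.54 (SE 0.15; adjusted p = 0.0492) against 5 days, by edgeR. The second call was lost with any 1 of the 12 female libraries left out (values between 0.43 and 0.64), the first without F20A, F30A, F30B, F40A, F40B or F40C (between 0.61 and 0.76), and both without the mex1 libraries (0.54 against 30 days and 0.44 against 5 days). Neuronal markers moved with Tsp39D between these ages, as edgeR called 5 of the 8 higher at 40 days than at 30 days in females (median log2 fold change 1.01), and their sum lay between 7181 and 8760 CPM at 40 days, against 3966 to 5071 CPM at 30 days. Their part in the value of Tsp39D was not tested. In males 2 of the 40-day libraries were also high, with 58.6, 59.7 and 35.7 CPM at 40 days, against 38.3, 38.0 and 32.4 CPM at 5 days, and the log2 fold change of 0.51 did not pass (adjusted p = 0.141 by edgeR).

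A group of 6 further members varied mainly between libraries of the same age and was highest in the mex1 libraries. In the 5 libraries (F5B, then F30A and F30B, then F40A, then M40C) Tsp2A had 14.4, 79.4, 26.4, 78.3 and 50.9 CPM, against 0.210 to 26.1 CPM with a median of 2.31 CPM in the other 18 libraries. Its highest value outside the 5 was that of F20A, and the next lay under 8 CPM. Tsp29Fb had 96.5, 320, 163, 237 and 123 CPM in the same 5 libraries, against 5.53 to 88.2 CPM with a median of 26.3 CPM in the others, and Tsp29Fa had 31.6, 96.2, 26.1, 104 and 47.1 CPM, against at most 12.4 CPM. For both Tsp29F genes the 5 libraries did not overlap with the other 18. The share of all genes that separate these libraries is not given here, and the 6 genes were grouped after their values were seen. Tsp42Ec had 2.37, 65.8, 3.38, 34.5 and 31.2 CPM, Tsp42Eq 10.4, 22.2, 4.10, 21.7 and 9.66 CPM, and Tsp42Er 5.20, 22.9, 8.52, 14 and 6.65 CPM, against medians of 0.703, 1.53 and 2.12 CPM in the other libraries. These 3 genes overlapped with the others at their lower end.

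The partners of Tsp2A in the gut junction followed the same libraries. Mesh, a membrane protein of the smooth septate junction, had 25.9, 181, 203, 351 and 125 CPM in the 5 libraries, against a median of 4.45 CPM and at most 59.1 CPM in the others, and Ssk (Snakeskin) had 41.3, 118, 38.2, 103 and 80.1 CPM, against a median of 24.6 CPM and at most 78.6 CPM. The summed level of 12 midgut markers ran from 27.1 to 27580 CPM over all libraries. In males at 40 days the log2 fold change was 3.96 (SE 1.15) for Tsp2A, 5.13 (SE 1.64) for Tsp42Ec, 3.91 (SE 1.72) for Tsp29Fa and 2.05 (SE 0.70) for Tsp29Fb, with adjusted p between 0.101 and 0.247 in edgeR, so that none passed. DESeq2 called Tsp2A, Tsp42Ec and Tsp29Fb there, with adjusted p of 0.000512, 0.0127 and 0.0103. Without M40C and the other mex1 libraries the values were 2.28, 2.47, 2.03 and 1.63. In edgeR no comparison of these 6 genes with 5 days passed in either sex, with or without the 5 libraries, while DESeq2 called Tsp42Er in females at 30 days (2.27, adjusted p = 0.0377). The part of midgut RNA in their levels was not tested beyond this. Of the exon sequence of Tsp29Fa, 53.6% lies opposite the antisense RNA gene CR46071, and the strand setting of the counting is not given in the sources used here.

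**Figure D4:**
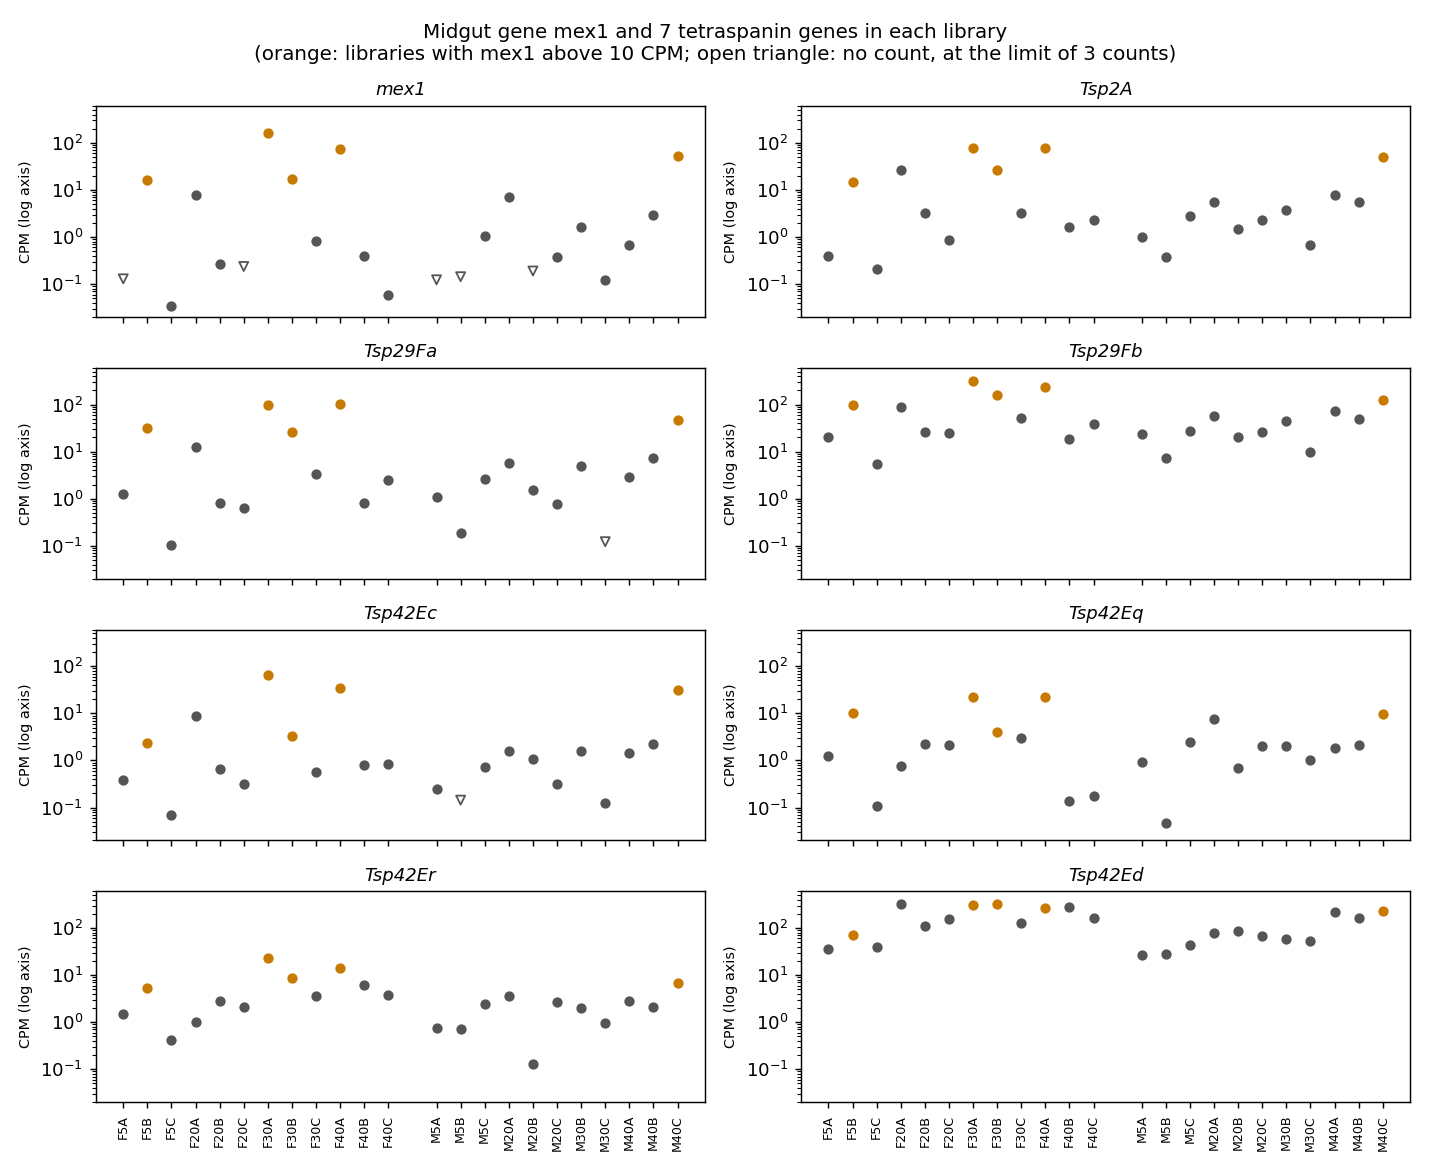
Level in CPM on a log axis of the midgut gene mex1 and 7 tetraspanin genes in each of the 23 libraries, females left of males and ages from 5 to 40 days, with the 5 mex1 libraries in orange and an open triangle at the limit of 3 counts where a library had none. Tsp2A, Tsp29Fa, Tsp29Fb, Tsp42Ec, Tsp42Eq and Tsp42Er peaked in orange libraries, and Tsp42Ed was high in orange libraries of its later ages and also in libraries with little mex1 such as F40B and M40A.

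None of the 3 members that act on Kuzbanian and Notch was called by edgeR. Tsp3A lay between 9.82 and 16.7 CPM, Tsp86D between 19.6 and 31.3 CPM and Tsp26A between 13.4 and 30.6 CPM over the 23 libraries, and their age groups overlapped in most comparisons. The largest difference was that of Tsp26A in females at 40 days, which averaged 27.8 ± 4.30 CPM, against 18.6 ± 3.34 CPM at 5 days (SD, n = 3 each), or 0.59 on the log2 scale (SE 0.20), which did not pass (adjusted p = 0.0925 by edgeR). Against 30 days it passed the pairwise test alone (0.77, adjusted p = 0.0446 by edgeR) and missed the F test over ages (adjusted p = 0.0571). DESeq2 called Tsp26A higher in females at 40 days, at 0.79 against 30 days (adjusted p = 0.00813) and 0.64 against 5 days (adjusted p = 0.0396), and with library totals edgeR called it at 0.85 against 30 days (adjusted p = 0.0264). Of 15 genes of the ADAM proteases and the Notch pathway, the median log2 fold change at 40 days was 0.14 in females and 0.05 in males, where that of all genes was -0.03 and -0.01. A single one of them, Tace, a sheddase related to Kuzbanian, was lower than at 5 days in females, by edgeR, with log2 fold changes of -0.92 at 20 days, -0.98 at 30 days and -0.63 at 40 days. Its level was 50.8 ± 10.8 CPM at 40 days, against 79.2 ± 18.5 CPM at 5 days (SD, n = 3 each). In females 4, 6 and 5 of the 15 had an unadjusted p under 0.05 in edgeR at 20, 30 and 40 days, and DESeq2 called 1, 3 and 3. The shares of all genes by these measures are not given here. None of the 15 was called in males against 5 days by edgeR, where 3, 0 and 4 had an unadjusted p under 0.05 at 20, 30 and 40 days and DESeq2 called 0, 0 and 1. The gene kuz itself averaged 146 ± 16.6 CPM in 40-day-old females, against 118 ± 31.5 CPM at 5 days, and 128 ± 23.5 CPM in 40-day-old males, against 126 ± 25.4 CPM at 5 days (SD, n = 3 each), and was not called.

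Among genes for other known partners and routes of tetraspanins, edgeR called few and DESeq2 more. Of 12 tested genes for integrins and their linkers, scb, an integrin alpha subunit, was higher in females at 30 days (log2 fold change 1.76) and at 40 days (1.90), and none at 20 days, where 4 had an unadjusted p under 0.05 and DESeq2 called 0. Of 20 genes of endosomes, lysosomes and exosomes, the cathepsin gene Cp1 was higher in females at 20, 30 and 40 days (0.76, 1.06 and 0.68) and ALiX, which takes part in sorting at endosomes, at 30 and 40 days (0.67 and 0.58). Of 16 septate junction genes, Gli was higher in females at 30 and 40 days (1.16 and 1.49), Atpalpha lower at 30 days (-1.02) and nrv2 lower at 40 days (-0.97). The median log2 fold changes of the 3 lists at 40 days in females were 0.42, 0.11 and 0.39, where that of all genes was -0.03. Over all genes edgeR called 2.97%, 6.67% and 7.34% at 20, 30 and 40 days in females, and 0.287% at 40 days in males. In females DESeq2 called 6 integrin, 5 endosomal and 4 septate junction genes at 30 days and 4, 4 and 5 at 40 days. No gene of these 3 lists was called in males against 5 days by edgeR. At 40 days in males 7 integrin, 4 endosomal and 9 septate junction genes had an unadjusted p under 0.05, and DESeq2 called 3, 1 and 5. The shares of all genes by DESeq2 and at an unadjusted p under 0.05 are not given here, so these counts are not set against them.

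Of the other highly expressed members, Tsp42Ee, Tsp42Ef and Tsp96F did not pass in edgeR. Tsp42Ee averaged 268 ± 5.11 CPM at 5 days, 368 ± 93.4 CPM at 20 days, 324 ± 48.8 CPM at 30 days and 315 ± 9.95 CPM at 40 days in females, and each older female group lay above the 5-day libraries. In males it averaged 362 ± 40.9 CPM at 40 days, against 255 ± 50.7 CPM at 5 days (SD, n = 3 each), which is 0.50 on the log2 scale (adjusted p = 0.172 by edgeR). DESeq2 called Tsp42Ee over the 4 ages in males (adjusted p = 0.0227), and at 0.81 for 40 days against 30 days (adjusted p = 0.0293). Tsp96F was lowest in 30-day-old females, at 101 ± 13.3 CPM, against 139 ± 18.2 CPM at 5 days (SD, n = 3 each), and missed the threshold (adjusted p = 0.0556 by edgeR). DESeq2 called Tsp96F lower there (-0.48, adjusted p = 0.0236) and higher at 40 days than at 30 days in females (0.58, adjusted p = 0.00442), and edgeR with library totals called both (-0.52 and 0.66, adjusted p of 0.0451 and 0.0185). The gene lbm stayed between 5.66 and 13.2 CPM in all libraries, its ages overlapped in both sexes, and its log2 fold changes against 5 days lay between -0.08 and 0.34. Without the mex1 libraries the value at 30 days in females, with 1 library left there, was -0.26.

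At 42E on chromosome 2R, 18 of the 36 genes, from Tsp42Ea to Tsp42Er with lbm among them, sit together and span 73438 bases (6992676 to 7066113), 15 on the plus and 3 on the minus strand. Tsp42Ed rose while edgeR did not call the adjacent Tsp42Ee against 5 days in either sex, and Tsp42Ej, which fell, lies next to Tsp42Ek, with which it shares 9.59% of its exon sequence on the same strand. The log2 fold change of Tsp42Ek at 40 days was -0.51 in females and -0.63 in males, and neither passed. Of the 16 genes of the stretch that were tested, 12 had a positive log2 fold change at 40 days in each sex, with a median of 0.53 in females and 0.38 in males, against 8 and 7 of the 14 members elsewhere, with medians of 0.15 and -0.01. At 20 days 9 of the 16 were positive in females and 10 in males, with medians of 0.40 and 0.19, against -0.15 and -0.05 for the members elsewhere. At 30 days 13 were positive in females (median 0.68, against -0.33 elsewhere), and in males 10 of the 16 were negative (median -0.15, against -0.22 elsewhere). Of those 16, 3 (Tsp42Ec, Tsp42Eq and Tsp42Er) belong to the group that was highest in the mex1 libraries, and 2 (Tsp42Ed and Tsp42Ej) were called. The other 3 genes of that group (Tsp2A, Tsp29Fa and Tsp29Fb) are among the 14 members elsewhere. Medians without the mex1 libraries are not given here for the stretch or for the members elsewhere.

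**Figure D5:**
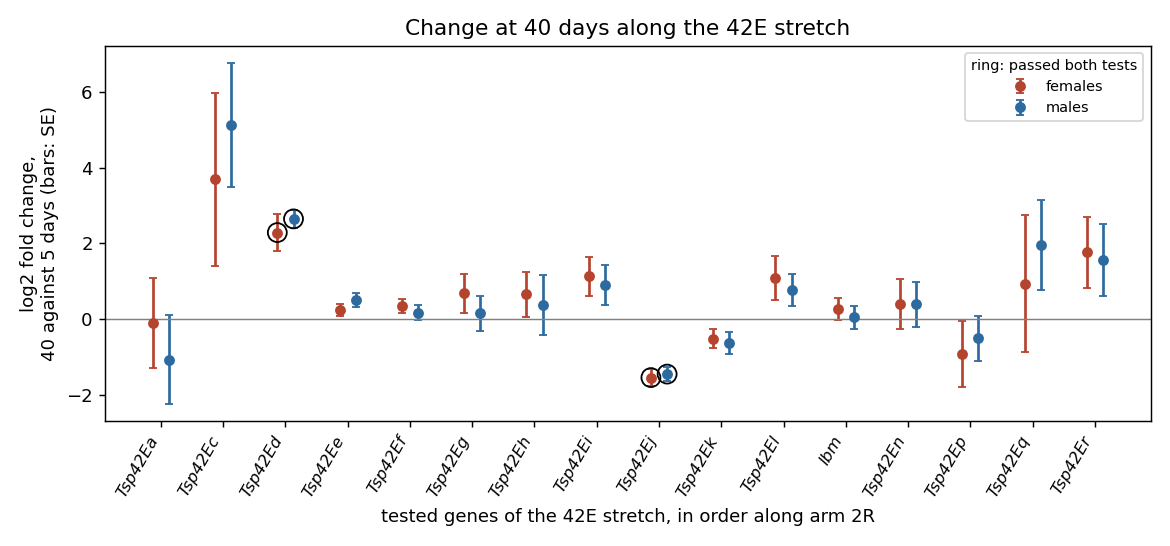
Log2 fold change at 40 days against 5 days, with its standard error, of the 16 tested genes of the 42E stretch in their order along chromosome arm 2R, females (red) and males (blue), with a ring where both tests were passed. Tsp42Ed and Tsp42Ej were ringed in both sexes, on opposite sides of 0, and the long bars of Tsp42Ec and Tsp42Eq show how far their libraries lay apart.

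Females and males differed in 1 gene at 1 age by edgeR. At 30 days, where 0.997% of all genes were called, Tsp42Ed was higher in females, with 310, 319 and 125 CPM, against 58.6 and 53.5 CPM in males, a log2 difference of 2.16 (SE 0.48; adjusted p = 0.0441 by edgeR). The female libraries did not overlap with the male ones, although F30C was nearer to the males. The call was lost without F5A, F20C, F30A, F30B, F40B, F40C, M5A, M20C, M30B or M30C (values between 1.96 and 2.25) and without the mex1 libraries (1.16), which leaves F30C alone in that group. No tetraspanin gene passed at 5, 20 or 40 days, where 0.168%, 0.344% and 0.362% of all genes were called and 0, 2 and 1 of the 30 reached an unadjusted p under 0.05 in edgeR, and DESeq2 called 0, 1 (Tsp42Ed) and 0. At 30 days DESeq2 called 5, of which Tsp42Ed, Tsp42Ee, Tsp42Ef and Tsp42Er were higher in females and TM4SF lower, and edgeR with library totals called 4 (Tsp42Ed higher, and TM4SF, Tsp26A and Tsp97E lower). The 0.997% of all genes belongs to the main edgeR fit, and the shares with DESeq2 and with library totals are not given here. At 30 days TM4SF had 123, 103 and 155 CPM in females, against 191 and 210 CPM in males, without overlap, and its log2 difference of -0.66 (SE 0.16) missed the threshold (adjusted p = 0.0527 by edgeR). The difference passed with DESeq2 (-0.66, adjusted p = 0.00575) and in edgeR with library totals (-0.85, adjusted p = 0.0136), with the length trend removed (-0.71, adjusted p = 0.0414) and with a filter of 1 CPM (-0.66, adjusted p = 0.0478). The summed neuronal markers lay between 3966 and 5071 CPM in females, against 7346 to 8110 CPM in males, at that age, and their part in the difference was not tested. The change from 5 days did not pass as different between the sexes for any member at 20, 30 or 40 days, and at an unadjusted p under 0.05 edgeR's interaction test gave 0, 3 and 0 of the 30 genes, while DESeq2 called none.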

How the data were processed

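RNA from pools of 18 dissected brains was sequenced in 23 libraries. The authors used Trimmomatic 0.35 for trimming, STAR for alignment (dm6) and HTSeq in union mode for counting, and the deposited values are raw counts per gene with no normalization. Counts of every gene entered edgeR 4.0.16 in R 4.3.3 (filterByExpr, TMM factors, robust quasi-likelihood fits, two-sided tests, Benjamini-Hochberg adjustment over all genes tested), with age as the group in separate fits of females and males, and both sexes in 1 fit of 8 groups for sex differences and interactions. Each library was a separate pool, and p-values measure the spread between such pools. Limits from 3 counts cover counting error only.

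Symbols were matched to the BDGP6 annotation, 12872 directly, 4455 through older symbols, and 194 stayed unmatched. Exon lengths were the union of annotated exons. Reads in exons shared by genes are dropped by union counting, and the strand setting is not given in the sources used here. Values per library were given for the members called in any comparison, for the uncalled members that were highest in the mex1 libraries, and for mex1, mesh and Ssk. Outside the family, kuz, called list genes and defining markers were also named. The further members described in detail were chosen after their values were seen. The members, the gene lists and the division of libraries at 10 CPM of mex1 were chosen with earlier results of these data known. Fits were tested on simulated counts, with genes changed at 40 days and compared with 5 days by edgeR. At 4 times the level, 30 of 50 genes were called in females and 35 of 50 in males. At 0.25 times the level, 31 of 50 and 25 of 50 were called. At 2 times the level, 8 of 50 and 10 of 50 were called, and at 0.5 times 4 of 50 and 2 of 50. Most simulated 2-fold changes were therefore missed. Alternatives were DESeq2 1.42.0, other scaling factors and filters, only the 2 groups compared, both sexes together, the pairwise test alone, the replicate letter as a block, removal of a length trend, and libraries left out.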

Additional observations from a re-analysis of the deposited data

How the results depend on the processing

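Counts of called tetraspanin genes moved with the setting as follows, and are given without the share of all genes called under each setting. No called log2 fold change reversed in sign under these settings. Among members not called, signs did change without the mex1 libraries, and the edgeR value in females was -0.26 without them and 0.34 with them for lbm at 30 days, -2.03 and 0.93 for Tsp42Eq at 40 days, and 2.69 and -1.33 for Tsp29Fa at 20 days. With DESeq2 the comparisons with 5 days gave 5 genes at 20 days in females and 3 in males, 2 at 30 days and 7 at 40 days in males, 3 at 40 against 30 days in females and 2 in males, 8 in the F test of males (a likelihood ratio test there), and 1 and 5 between the sexes at 20 and 30 days. Without the mex1 libraries females kept 1 call over ages, 1 at 20 days, 0 at 30 days, 1 at 40 days and 0 at 40 against 30 days, and 0 remained at 20 days in males and between the sexes at 30 days, with fewer libraries in each fit. With only the 2 groups fitted females had 1, 0 and 3 calls at 20, 30 and 40 days and 3 at 40 against 30 days, males had 0 at 20 days, and the sexes differed in 2 at 30 days. With no filter the counts were 1 at 20 days and 3 at 40 days in females and 0 between the sexes. The call at 20 days in males was lost (0 calls) with RLE factors, with library totals and with the length trend removed. At 40 against 30 days in females there were 3 calls with library totals and 3 with the pairwise test alone. Between the sexes at 30 days there were 4 with library totals and 2 with either the length trend removed or a filter of 1 CPM, and both sexes in 1 fit gave 1 call at 30 days in males.

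The main fits did not pair libraries by replicate letter. The deviations of libraries with the same letter had a mean correlation of 0.079 in females (8 of 18 pairs over 0.1) and -0.071 in males (2 of 15). With different letters it was -0.039 in females (13 of 36 pairs) and 0.036 in males (13 of 30). The order differed between the sexes, so these values do not decide whether the letters mark pairs. With the replicate block there were 0 calls at 20 days in males, 2 at 40 against 30 days in females (Tsp26A and Tsp96F, while Tsp39D missed the F test over ages) and 0 between the sexes at 30 days, and the other counts stayed within 1.5 times, although Tsp42Ej at 40 days in males and Tsp39D at 40 against 5 days in females were not called.

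With each library left out in turn, females had 2 to 7 calls over ages, 1 to 2 at 20 days, 1 to 6 at 30 days, 2 to 5 at 40 days and 0 to 2 at 40 against 30 days. Males had 1 to 3 over ages, 0 to 2 at 20 days, 0 to 1 at 30 days, 1 to 3 at 40 days and 0 to 1 at 40 against 30 days, and the sexes differed in 0 to 3 at 30 days. The cause of these shifts was not tested. With library totals the median of all genes moved by 0.13 at 30 days against 5 days and 0.12 at 30 days against 20 days in males, and by -0.18 between the sexes and -0.16 in the interaction at 30 days, on the log2 scale.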
